A study of Mus musculus with 9 samples.

Results

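Cytosolic ribosomal protein genes are the subject here: the genes for the proteins of the ribosome outside mitochondria. They were taken by symbol, as Rpl, Rps or Rplp followed by a digit, leaving out pseudogene, antisense and kinase symbols. To these were added 3 processed copies of Rplp0, namely Gm8730, Gm9625 and Rplp0-ps1. The rule found 89 of the 13698 genes in the table. They were 43 large subunit genes, 30 small subunit genes, 3 stalk genes, 7 minor paralogs, the 3 Rplp0 copies and 3 other copies at a locus of their own (Rps3a2, Rps3a3 and Rpl37rt, set apart once the table had been seen). The 76 large subunit, small subunit and stalk genes are called the assembled ribosome genes below. Rpsa has no digit in its symbol and fell outside the rule, as did Fau and Gnb2l1.

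RNA was sequenced from regulatory T (Treg) cells of mouse spleen and lymph node in 9 libraries, 3 in each of 3 groups, all of strain background C56Bl6/129 mix and from female mice. Deficient cells were YFP+MHCII- cells of LRFffThpokff Foxp3 Cre-YFP/X mice, in which a Cre recombinase made from the Foxp3 gene acts on floxed alleles of the transcription factors LRF (Zbtb7a) and Thpok (Zbtb7b). Animal controls were YFP-MHCII-CD25hi cells of the same 3 mice (142114, 232614 and 432614), so they carry the floxed alleles but use the Foxp3 allele without Cre. Genetic controls were YFP+MHCII- cells of 3 other mice (124, 8619 and 8800), WT Foxp3 Cre-YFP/X, which share the Cre allele and lack the floxed ones. The question put by the design is what changes in Treg cells that lose both factors, beside a control from the same animal and a control with the same Cre allele. The values were log2 CPM (counts scaled to a common library total), already quantile-normalized across libraries, so that the most abundant genes take values shared between libraries. Read totals per library are not known, so no counting interval can be given.

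Each ribosome carries 1 copy of nearly every ribosomal protein, and surplus protein is degraded, so the genes of this family are made in balanced amounts and are among the most abundant transcripts of a lymphocyte. Many of their mRNAs begin with a C followed by a run of pyrimidines, the 5′ terminal oligopyrimidine (TOP) motif, through which mTORC1 controls their translation. Intron-less copies of their mRNAs, called processed pseudogenes, are scattered over the mouse genome in large numbers, and short reads from the gene and its copies can be hard to tell apart.

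Thpok mRNA (Zbtb7b) lay at 0.147 to 0.366 CPM in the 3 deficient libraries, against 92.1 to 149 in genetic controls and 76.9 to 106 in animal controls. LRF mRNA (Zbtb7a) lay at 78.8 to 103 CPM in the deficient libraries against 69.5 to 111 in genetic controls (log2 fold change 0.01 ± 0.25 SE, limma adjusted p = 1). It was therefore not lower in deficient cells than in genetic controls. In mice 142114, 232614 and 432614 it lay at 86.3, 78.8 and 103 CPM in deficient cells. Animal controls of the same mice were each higher, at 128, 90.6 and 116 CPM, but the difference did not pass (log2 -0.31 ± 0.25, limma adjusted p = 0.704). The labels do not say which exons were removed, and reads from the others would still be counted. Foxp3, the defining Treg factor, lay at 24.8 to 38.1 CPM in all 6 YFP+ libraries, those of WT mice included, and at 754 to 999.7 in animal controls. The YFP+ cells use the Foxp3 allele with Cre and the animal controls the one without. For Foxp3, allele and cell content therefore cannot be told apart. The 12 listed T and Treg cell markers, led by Lck and with Foxp3 among them, differed less. They summed to 8461 to 10085 CPM in animal controls, 7136 to 7327 in deficient cells and 7039 to 8542 in genetic controls. Fewer cells of a type and less RNA per cell cannot be told apart in such bulk libraries. B cell markers (6 of 10 listed were measured, led by Ighm) summed to 1314 to 1840 CPM in animal controls, 694 to 912 in deficient cells and 700.3 to 1102 in genetic controls. Myeloid markers (4 of 12 measured, led by Lyz2) summed to 1.20 to 6.06, 24.2 to 63.0 and 11.98 to 319 CPM in the same order. Their part in the results was not tested. The labels do not say that mice of a group were processed apart, so p-values measure the spread between these libraries.

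The following 60-base stretches are shown because the only members that passed a test are copies of Rplp0. Rplp0 (GRCm38, chr5:115559467-115563727, plus strand) encodes the stalk base protein uL10, on which Rplp1 and Rplp2 sit to recruit elongation factors. The stretch lies within its coding sequence, at transcript bases 509 to 568 counted from 1 at the 5′ end. In the Rplp0 line capitals mark bases at which any of the 4 copies differs, and in the copy lines they mark the base that differs from Rplp0.
Rplp0: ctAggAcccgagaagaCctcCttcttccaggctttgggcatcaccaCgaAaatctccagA
Gm8730: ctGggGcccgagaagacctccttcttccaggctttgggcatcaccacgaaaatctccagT
Gm9625: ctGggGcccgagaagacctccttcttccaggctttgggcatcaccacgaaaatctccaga
Gm14165: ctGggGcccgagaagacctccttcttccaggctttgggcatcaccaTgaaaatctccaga
Rplp0-ps1: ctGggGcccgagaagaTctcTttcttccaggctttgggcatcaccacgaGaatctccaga

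All 4 copies carry A511G and A514G, numbered as above with the Rplp0 base first. Gm8730 also carries A568T, Gm14165 carries C555T, and Rplp0-ps1 carries C525T, C529T and A558G. Gm8730 (chr8:102864845-102865798, minus strand) differs from Rplp0 at 12 of 954 aligned bases. Gm9625 (chr13:67810246-67811200, plus strand) has 24 substitutions, Gm14165 (chr2:152353615-152354566, plus strand) 25 and Rplp0-ps1 (chr3:93278141-93279073, plus strand) 40. Each of the last 3 shares 8 of its substitutions with Gm8730. All 4 are annotated as processed pseudogenes in GENCODE M21. Gm14165 is outside the naming rule and was found by sequence after values had been seen. Long runs of this stretch are the same in the gene and its copies. No source used here names the counting tool or its handling of reads with several matches.

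The values of the Rplp0 copies lay higher in all libraries of LRFffThpokff mice than in the genetic controls, and between the 2 controls Gm8730 and Gm9625 passed the test while Rplp0-ps1 and Gm14165 did not (limma adjusted p = 6.16e-04, 9.37e-04, 0.169 and 0.0718). Genotype and the individual mice cannot be told apart here. Gm8730 lay at 14.1, 17.5 and 18.9 CPM in the genetic controls of mice 124, 8619 and 8800. In deficient cells of mice 142114, 232614 and 432614 it lay at 289, 601 and 638 CPM, and in the animal controls of the same mice at 309, 592 and 565. The genetic controls therefore stood below all 6 libraries of LRFffThpokff mice, and the deficient and control values of each of those mice lay close together. Deficient cells were 28.7-fold above genetic controls (log2 4.84 ± 0.35 SE, n = 3 and 3, limma-trend with Benjamini-Hochberg adjustment over all genes, adjusted p = 2.89e-04). Against animal controls the log2 difference was 0.03 (95% interval -0.74 to 0.80).

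Gm9625 followed the same order. It was measured at 2.92, 3.61 and 4.87 CPM in genetic controls, at 106, 219 and 247 in deficient cells and at 104, 215 and 210 in animal controls. The rise over genetic controls was 48.1-fold (log2 5.59 ± 0.43, limma adjusted p = 4.80e-04). Mouse 142114 was the lowest of the 3 LRFffThpokff mice in both of its populations, for Gm8730 and for Gm9625. Rplp0-ps1 lay at 0.0374, 0.428 and 0.158 CPM in genetic controls, near the bottom of the scale, and at 6.87, 14.2 and 14.7 in deficient cells and 6.03, 14.7 and 12.1 in animal controls. Deficient cells did not overlap genetic controls (log2 6.37 ± 1.14, limma adjusted p = 0.0370). That call was lost in 9 of 14 alternative settings, among them 8 of the 9 that leave out a library (without genetic control 124, adjusted p = 0.0599). Gm14165 showed 0.805 to 2.03 CPM in genetic controls, 18.3 to 42.4 in deficient cells and 17.6 to 38.5 in animal controls (log2 4.45 ± 0.64 against genetic controls, limma adjusted p = 0.0144).

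**Figure D1:**
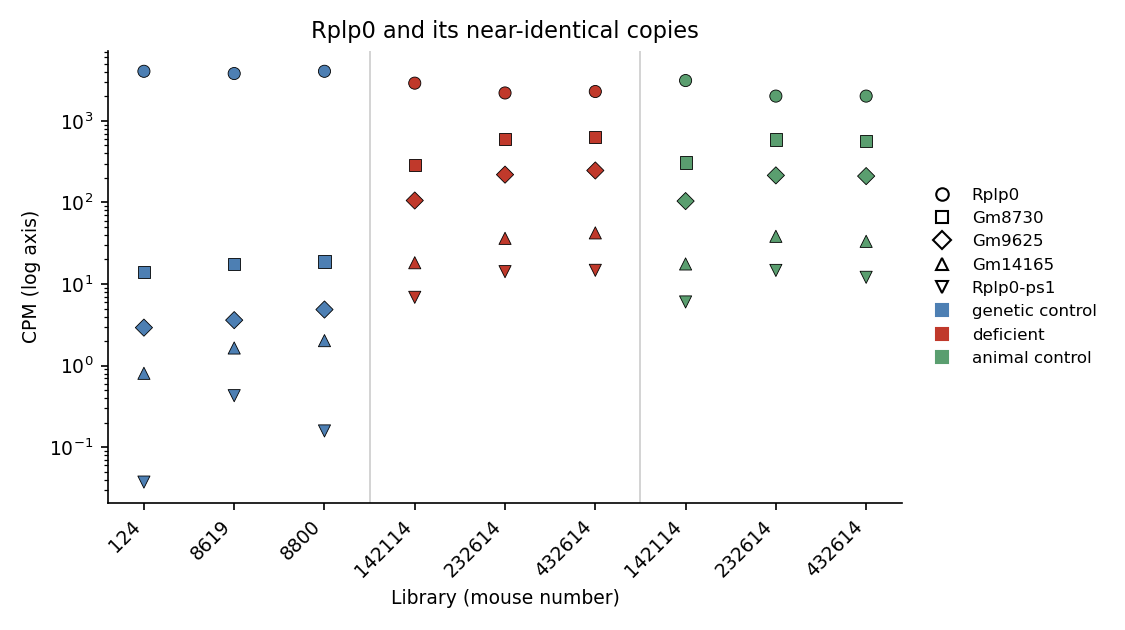
CPM (log axis) of Rplp0 and 4 near-identical copies in each library, 1 point per library, coloured by group. Genetic controls sit highest for Rplp0 and lowest for each copy, and the 2 populations of 1 mouse have like values.

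Rplp0 itself stood in the opposite order. Its level was 4052, 3803 and 4052 CPM in genetic controls, 2900, 2198 and 2290 in deficient cells and 3120, 2012 and 2012 in animal controls. All 3 genetic controls were above all 6 other libraries, and mouse 142114 was again the nearest to them. The log2 difference of deficient cells from genetic controls was -0.70 ± 0.16 (95% interval -1.06 to -0.33) and did not pass the test (limma adjusted p = 0.104). Between the 2 controls it was 0.77 ± 0.16 (adjusted p = 0.232). Both passed with animal control 142114 left out of the fit (adjusted p = 0.0240 and 0.0315). Deficient cells and animal controls differed by 0.07 (95% interval -0.29 to 0.43).

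The share of the Rplp0 family signal that fell on its 4 copies was 0.440%, 0.606% and 0.635% in the genetic controls. In mouse 142114 it was 12.6% in deficient and 12.3% in animal control cells. In mouse 232614 it was 28.4% and 29.9%, and in mouse 432614 it was 29.1% and 29.0%. The populations of a mouse thus had close shares, and mouse 142114 stood between the genetic controls and the other LRFffThpokff mice. Summed with its copies, Rplp0 came to 3992 ± 143 CPM (SD, n = 3) in genetic controls, 3206 ± 127 in deficient cells and 3087 ± 407 in animal controls. With the copies added to their parent genes before the fit, an alternative added after the data were seen, the Rplp0 difference from genetic controls was -0.32 ± 0.08 (limma adjusted p = 0.150) in place of -0.70.

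In all, 3 of 89 members passed the test between deficient cells and genetic controls, all higher and all Rplp0 copies, where 0.869% of all 13698 genes passed and 0.336% were higher. The Rplp0 copies were added to the rule by name, with earlier results of these data known. Their count therefore cannot be weighed against the share of all genes. No member taken by its symbol passed in any of the 3 comparisons. None of the 76 assembled ribosome genes passed in limma-trend, with 11 of 76 at an unadjusted p under 0.05, where 10.6% of all genes had such a p. Between deficient cells and animal controls 0 of 89 members passed in limma-trend, where 0.891% of all genes passed (0.307% higher, 0.584% lower), and 5 had an unadjusted p under 0.05 (11.9% of all genes). Between genetic and animal controls 2 members passed, Gm8730 and Gm9625, both lower in genetic controls, where 0.0365% of all genes passed, and 7 of 89 had an unadjusted p under 0.05 (6.62% of all genes). Without the trend in the variance, limma gave 3, 0 and 2 passing members, and 0 members had an unadjusted p under 0.05 between deficient cells and animal controls. With copies added to their parents, no member passed in any of the 3 comparisons, with 10, 5 and 3 at an unadjusted p under 0.05. The 3 comparisons share libraries, so their values are not independent of each other.

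**Figure D2:**
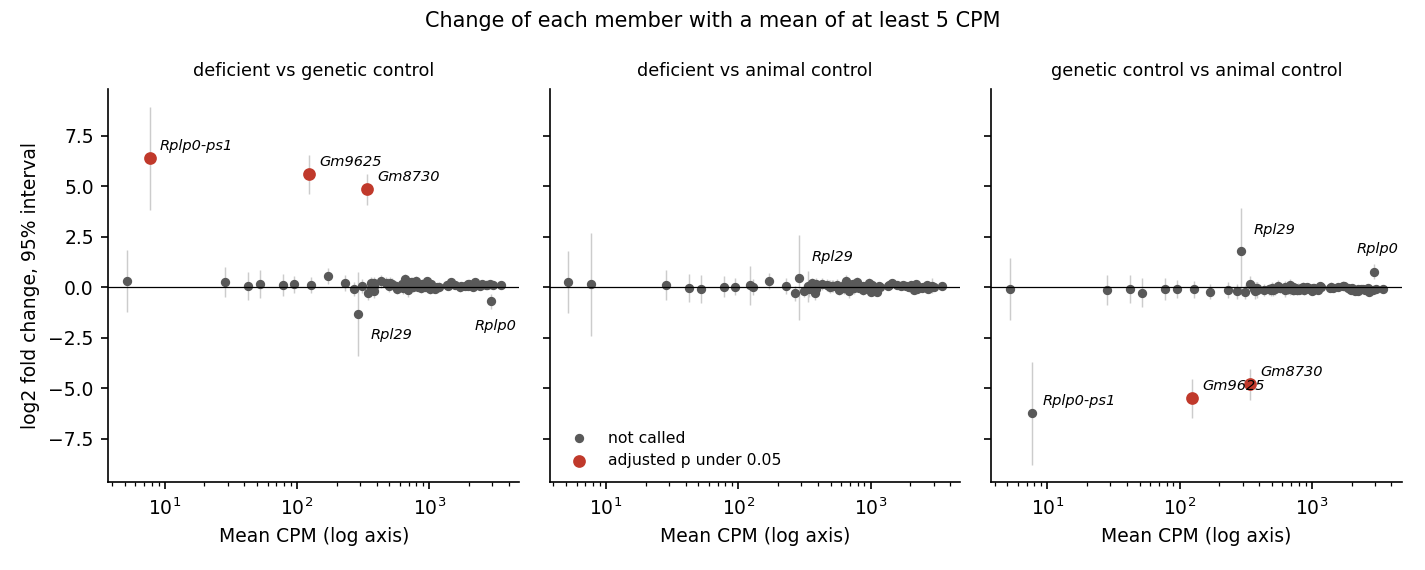
Fitted log2 fold change with its 95% interval (y axis) against mean CPM over 9 libraries (x axis, log) for the 85 members whose mean reaches 5 CPM, in the 3 comparisons. Members that passed the test are in red and are all Rplp0 copies, while nearly all other members lie close to 0.

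For most assembled ribosome genes the data bound the change in the normalized value to a narrow range. Quantile normalization gives the most abundant genes values shared between libraries, so a shift common to them need not show in these intervals. The 95% interval of the log2 fold change lay wholly within ±0.5 (a 1.41-fold change either way) for 62 of 76 genes against genetic controls, for 69 against animal controls and for 66 between the controls. Their median change was 0.08 against genetic controls and 0.03 against animal controls, and between the controls it was -0.08. Over all genes the medians were 0.04, 0.04 and -0.02. Large and small subunit genes had medians of 0.08 and 0.10 against genetic controls and of 0.03 and 0.03 against animal controls.

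One library weighed on the comparison with genetic controls. Genetic control 124 held the lowest value of all 9 libraries in 65 of the 76 genes, with a median of -0.21 log2 units from each gene's mean. Deficient 432614 held the highest in 34 of 76, with a median of 0.12. Over all 89 members the median change against genetic controls was 0.11, and 0.02 without library 124. The difference between the controls went from -0.08 to 0.01 in the same way. Library 124 also had the lowest summed level of mitochondrially encoded genes, 30829 CPM against 35457 to 39477 in the other 8, and the part of that level in the members' values was not tested.

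**Figure D3:**
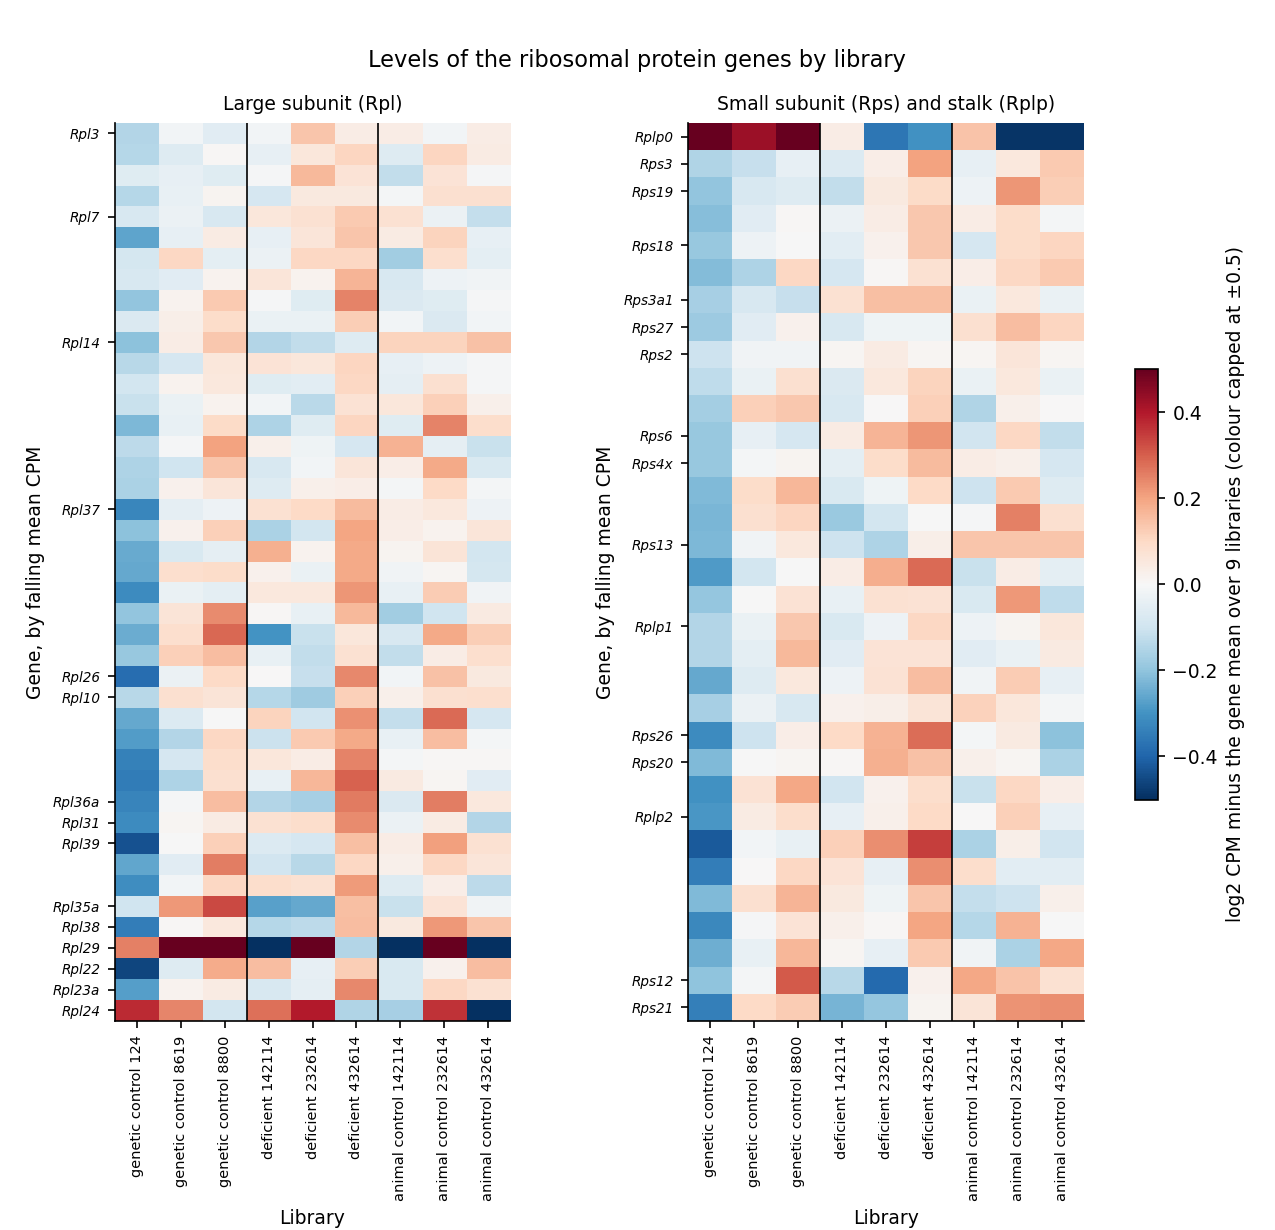
log2 CPM of each of the 76 assembled ribosome genes in each library, minus the gene's mean over 9 libraries (colour, capped at ±0.5), with genes ordered by mean CPM and those described in the text labelled. Genetic control 124 is below the mean in most rows, deficient 432614 is above it in most, and Rplp0 and Rpl29 hold the strongest colours.

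Summed over all members, the family took 75770, 84415 and 88247 CPM in genetic controls, 82961, 86703 and 91791 in deficient cells and 83859, 89116 and 85049 in animal controls. That is 7.58% to 9.19% of the normalized total of each library, and the 3 groups overlap. The group means were 82810 ± 6391, 87152 ± 4432 and 86008 ± 2756 CPM (SD, n = 3 each). Large subunit genes summed to slightly more than small subunit genes in all 9 libraries. Their ratio was 1.07 to 1.08 in genetic controls, 1.05 to 1.06 in deficient cells and 1.03 to 1.05 in animal controls, so the genetic controls stood above the other 6 libraries. Without Rpl29 the ratios were 1.06 to 1.07, 1.03 to 1.06 and 1.03 to 1.05, and genetic controls were 1.057 at the lowest, beside 1.057 for deficient 142114.

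Among small subunit genes, Rps3a1 came closest to the threshold. Rps3a1 encodes eS1, which helps to line the mRNA exit region of the small subunit. Its level was 1969, 2091 and 2042 CPM in genetic controls, 2328, 2452 and 2452 in deficient cells and 2158, 2290 and 2158 in animal controls. Deficient cells were above both controls with no overlap. The log2 differences were 0.25 ± 0.05 (limma adjusted p = 0.0862) and 0.13 ± 0.05 (adjusted p = 0.381), so neither passed. Rps3a1 also varied little, with a within-group coefficient of variation of 3.16%, second only to Rps2 among the members (2.35%).

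Rps26, a protein of the mRNA exit channel, lay at 629, 729 and 800.4 CPM in genetic controls, 839, 882 and 951 in deficient cells and 777, 808 and 678 in animal controls. Deficient cells were above both controls with no overlap here too. The log2 differences were 0.31 ± 0.11 (limma adjusted p = 0.335) against genetic and 0.24 ± 0.11 (adjusted p = 0.434) against animal controls. Rps6, the S6 kinase substrate, lay at 1271, 1408 and 1365 CPM in genetic controls, 1490, 1629 and 1685 in deficient cells and 1355, 1555 and 1328 in animal controls. Deficient cells lay above all genetic controls but overlapped animal controls, and neither difference passed (0.25 ± 0.08, adjusted p = 0.290, and 0.18 ± 0.08, adjusted p = 0.426).

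Some genes lay lower in deficient cells than in animal controls. Rps13 (uS15) read 1109 CPM in all 3 animal controls, a tie that quantile normalization can give, and 935, 903 and 1026 in deficient cells, but 862, 993 and 1042 in genetic controls. Rps21 lay at 229, 235 and 271 CPM in deficient cells, 280.5, 314 and 316 in animal controls and 212, 287 and 293 in genetic controls. Both fitted differences from animal controls, -0.22 ± 0.09 and -0.31 ± 0.16, missed the threshold (limma adjusted p = 0.378 and 0.483). Rps12 and the large subunit gene Rpl14 were lower in deficient cells in 3 of 3 mice as well (-0.31 ± 0.16 and -0.23 ± 0.09, adjusted p = 0.480 and 0.349). Among members with a mean of 10 CPM or more, Rpl35a had the third lowest difference from genetic controls (-0.28 ± 0.16, adjusted p = 0.591). Between the controls Rpl35a and Rpl36 lay at 0.17 and 0.11 and Rpl38 at -0.23 (adjusted p = 0.922, 0.941 and 0.836). Rpl26, known for binding p53 mRNA, had 0.15 against genetic and -0.02 against animal controls (adjusted p = 0.798 and 0.989).

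Of the 76 genes, 13 lay higher and 1 (Rplp0) lower in all 3 deficient libraries than in every genetic control, where 8.44% and 7.28% of all genes were so placed (15.7% in all). Against animal controls 9 were higher and 5 lower (7.85% and 8.1% of all genes, 15.9% in all), and between the controls 1 and 7 (4.88% and 5.57%, 10.4% in all). Genes above both controls included Rps3a1, Rps26, Rpl31 and Rpl37. Within mice, 16 of 76 genes were higher in deficient cells in 3 of 3 mice and 11 of 76 in none (21.1% and 14.5%), beside 15.2% and 18.6% of all genes.

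Among large subunit genes Rpl29 varied most between libraries, and its groups overlap in every comparison. Rpl29 (eL29, chr9:106429454-106431568, plus strand) is a small basic protein of the large subunit. Its level was 235, 535 and 536 CPM in genetic controls, 49.8, 476 and 178 in deficient cells and 59.5, 482 and 55.0 in animal controls. Both populations of mouse 232614 were near the genetic controls 8619 and 8800, and both of mouse 142114 were low. In mouse 432614 the deficient cells were at 178 and the animal controls at 55.0. No comparison passed (log2 -1.33 ± 0.94, limma adjusted p = 0.677, against genetic and 0.47 ± 0.94, adjusted p = 0.916, against animal controls). The second value was -0.31 without deficient 232614 and up to 1.498 without animal control 232614.

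Gm8210 and Gm13841, 2 of the 12 copies of Rpl29, were high where Rpl29 was low. Not every copy shared this. Gm10709, for example, lay at 4.38 CPM in animal control 232614, where Rpl29 was high, and at 0.0603 CPM in animal control 142114, where it was low. The next stretch (Rpl29 transcript bases 83 to 142, coding) is shown because it holds a base that sets the gene apart from Gm8210 (chr1:43189156-43189638, plus strand) and Gm13841 (chr5:115801677-115802159, minus strand). The capital is the base that differs, C113A. Gm8210 and Gm13841 carry the same 3 substitutions over 483 aligned bases. They were chosen after their values had been seen.
Rpl29: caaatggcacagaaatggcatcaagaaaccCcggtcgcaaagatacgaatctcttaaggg
Gm8210: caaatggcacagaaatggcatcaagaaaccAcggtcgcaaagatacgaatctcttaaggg
Gm13841: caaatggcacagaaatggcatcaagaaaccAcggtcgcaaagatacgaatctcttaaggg

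Gm8210 lay at 22.5, 0.122 and 0.0873 CPM in genetic controls, at 44.98, 0.291 and 41.2 in deficient cells and at 51.4, 0.285 and 48.3 in animal controls. It was therefore near 0 in the 4 libraries of mice 8619, 8800 and 232614, where Rpl29 was above 470 CPM, and at 22.5 CPM or more in the other 5. Gm13841 was split the same way, at 1.21 to 2.41 and at 8.59 to 16.5 CPM. The sum over Rpl29 and its 12 copies still varied, from 118 CPM in deficient 142114 to 549 in genetic control 8800.

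**Figure D4:**
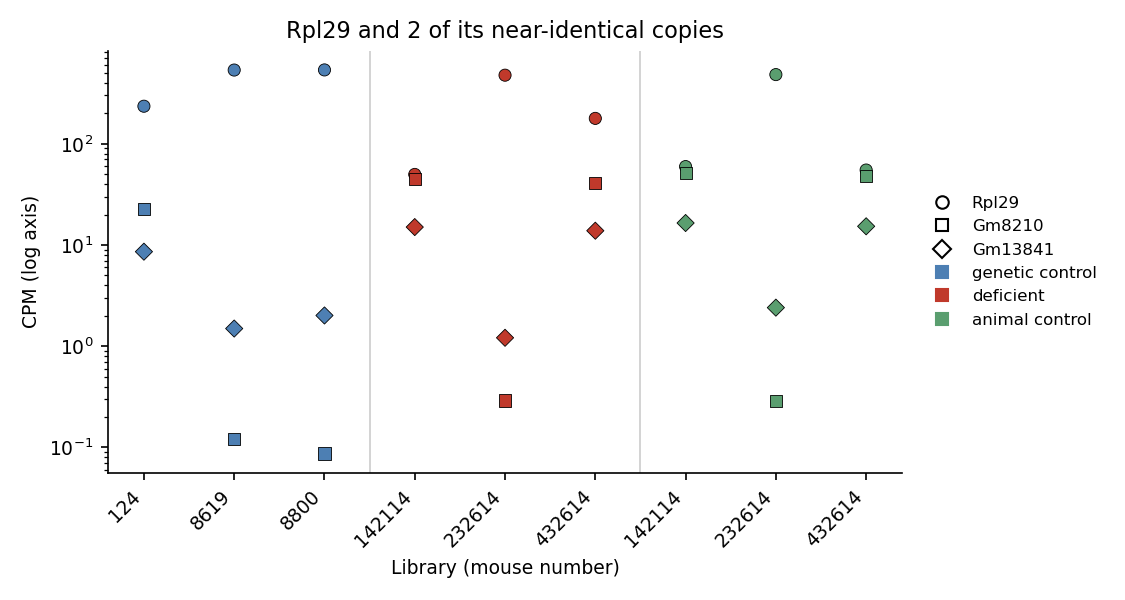
CPM (log axis) of Rpl29 and 2 near-identical copies in each library, 1 point per library, coloured by group. Mice 8619, 8800 and 232614 have high Rpl29 and low copies, and the other mice show lower Rpl29 and higher copies in each population sequenced.

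Copies were found for most of the family. A search of transcripts for at least 90% identity over at least 50% of a member's coding sequence gave 282 copies of 70 members, of which 271 are processed pseudogenes and 7 are members by the rule. Rpl21 alone had 27. Copies outside the rule summed to 1636 to 2524 CPM per library, beside at least 75770 CPM for the members. The groups overlap for the strongest of them. Gm10076, a copy of Rpl41 annotated as a long non-coding RNA, lay at 187 to 246 CPM in genetic controls, 240 to 271 in deficient cells and 221 to 245 in animal controls. Rpl9-ps6, which is annotated as protein-coding, lay at 137 to 153, 146 to 177 and 131 to 158 CPM in the same order.

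The other stalk proteins, Rplp1 and Rplp2, did not share the Rplp0 pattern. Rplp1 lay at 837, 907 and 1019 CPM in genetic controls, 879, 912 and 998 in deficient cells and 912, 935 and 964 in animal controls. Its difference from genetic controls was 0.02 ± 0.09 and that of Rplp2 was 0.08 ± 0.11 (limma adjusted p = 0.990 and 0.865). All 3 groups overlap for both genes.

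Paralogs stand in for a standard subunit in some ribosomes or tissues. Rpl7l1, a relative of Rpl7 that takes part in assembling the large subunit, had the largest positive difference from genetic controls of any member outside the copies. It lay at 121, 154 and 151 CPM in genetic controls, 191, 208 and 216 in deficient cells and 157, 194 and 145 in animal controls, so that deficient cells lay above all genetic controls and overlapped animal controls. Its log2 differences were 0.53 ± 0.18 (limma adjusted p = 0.282) and 0.32 ± 0.18 (adjusted p = 0.526). Rpl7 itself had 0.15 ± 0.06 and 0.11 ± 0.06 (adjusted p = 0.435 and 0.522).

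Rpl22, which is known for a role in T cell development, and its paralog Rpl22l1 overlapped between all groups. Rpl22 lay at 167 to 261, 223 to 255 and 218 to 255 CPM in genetic controls, deficient cells and animal controls, and Rpl22l1 at 64.8 to 80.7, 71.5 to 87.8 and 64.5 to 95.3. Rps27l, a target of p53, lay at 35.9 to 53.1, 38.7 to 69.4 and 50.8 to 63.7 CPM, and Rps27rt at 31.9 to 52.3, 37.7 to 50.8 and 41.1 to 47.0. Rpl36al, the autosomal relative of X-linked Rpl36a, lay at 82.5 to 94.5, 94.3 to 102 and 85.5 to 109.5 CPM. Rps27 lay at 1872 to 2158, 2012 to 2091 and 2250 to 2365 CPM in the same order, with animal controls above the rest (log2 -0.16 ± 0.06 for deficient cells against them, limma adjusted p = 0.365). The locus copies Rps3a2, Rps3a3 and Rpl37rt reached at most 6.58, 4.96 and 34.2 CPM. Rpl39l and Rps4l are known from the germ line, and were at or near the lowest value of the table (0.00457 CPM) in 5 and 6 of 9 libraries and at 2.39 CPM at most. GENCODE M21 annotates Rps4l as a transcribed processed pseudogene without a coding sequence. None of these genes passed in any comparison. Rpl3l and Rpl10l were not analysed here.

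No X-linked member passed in any comparison. Rps4x, Rpl10, Rpl36a and Rpl39 had log2 differences of 0.13, -0.07, 0.04 and 0.11 from genetic controls and of 0.07, -0.13, -0.10 and -0.11 from animal controls, with all 8 limma adjusted p at 0.646 or more.

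Across genes, the highest mean levels included those of Rpl3 (3456 CPM), Rplp0 (2938), Rps3 and Rps19. Per kb of transcript the order changed. Rps27 came first at 6174 CPM per kb, followed by Rps19 (4298), Rps18 (4174) and Rpl32 (3799). Of the 75 assembled ribosome genes that reached 10 CPM on average, the middle 50% lay between 793 and 1912 CPM per kb, and the whole range was 30.8-fold. Rps20 stood last at 200.3 CPM per kb, but its annotated transcript of 3706 bases holds a coding sequence of only 357. Rpl23a was next at 229.7, and 8 copies of it, led by Gm10132, took 41.3% to 45.5% of the family signal in every library.

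Rpl24 was the only assembled ribosome gene with a mean under 10 CPM. It was measured at 1.20 to 1.66 CPM in genetic controls, 1.15 to 1.69 in deficient cells and 0.541 to 1.65 in animal controls. Its processed copies Gm12254 and Gm9385 averaged 4.80 and 4.54 CPM, and how reads were shared between them was not tested. The order of the 75 genes by level was nearly the same in all libraries, with Spearman coefficients of 0.977 to 0.994 over the 36 pairs of libraries, given as a description since genes of 1 library share its preparation.

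**Figure D5:**
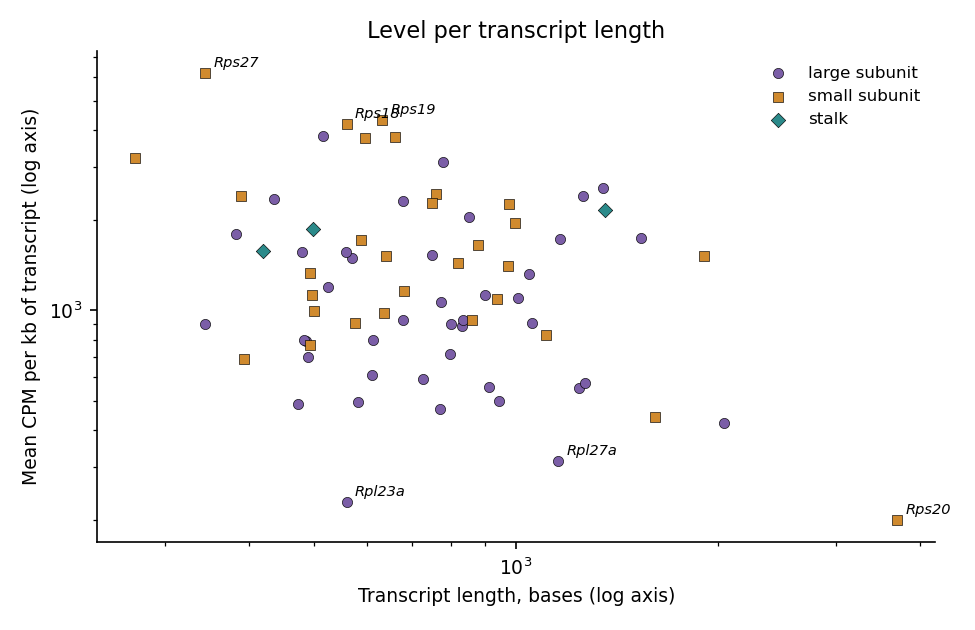
Mean CPM per kb of transcript (y axis, log) against transcript length in bases (x axis, log) for the 75 assembled ribosome genes that reach 10 CPM on average, by class. Rps27 is highest, and Rps20, with its long annotated transcript, is lowest.

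Promoters of the members were read from RefSeq windows (GRCm38.p6, 250 bases before to 50 after each annotated start), which matched 63 members with 74 windows. The next lines are shown for genes whose annotated start has the form of the TOP motif. Each gives 30 bases before the start, the first 5 transcribed bases in capitals, and 10 more.
Rps6 (chr4:86857353-86857397, minus strand): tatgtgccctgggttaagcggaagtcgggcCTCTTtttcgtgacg
Rps18 (chr17:33955651-33955695, minus strand): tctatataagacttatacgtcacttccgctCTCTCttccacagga
Rps15a (chr7:118116133-118116177, minus strand): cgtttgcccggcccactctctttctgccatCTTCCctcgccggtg
Rpl35 (chr2:39005117-39005161, minus strand): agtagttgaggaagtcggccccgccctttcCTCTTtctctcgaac
Rplp2 (chr7:141447621-141447665, plus strand): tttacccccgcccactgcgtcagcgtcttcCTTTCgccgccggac

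A first base C followed by 4 bases of C or T was found in 18.9% of member windows, 2.34% of windows of the other genes in the expression table and 2.51% of all 32851 windows. Within 10 bases of the start such a run was found in 50%, 27.9% and 26.5%. The ETS-type motif CCGGAAG was found on either strand in 35.1% of member windows, 18.2% of windows of the other genes in the expression table and 8.86% of all. The YY1-type motif AAGATGG was found in 16.2%, 7.23% and 6.34% in the same order. GGGCGG was found in 59.5%, 61.7% and 35.7%, and TATAAA in 9.46%, 6.72% and 13.6%, so for both the order of members and background depends on which background is used. GACCC, the core of the sequence that LRF is known to bind, was found in 54.1% of member windows, 51.9% of windows of the other genes in the expression table and 43.9% of all. A match is a description of the letters in the window and shows no binding. The 13 assembled ribosome genes whose start had the pyrimidine form had a median log2 difference of 0.08 from genetic controls and 0.00 from animal controls, beside 0.07 and 0.04 for the 43 with another start.

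Ribosomal components outside the rule did not pass a test either. Rpsa lay at 3537 to 3623 CPM in genetic controls, 3271 to 3623 in deficient cells and 3419 to 3803 in animal controls. Fau, which encodes eS30 fused to a ubiquitin-like protein, lay at 709 to 887, 732 to 870.0 and 721 to 839 CPM. Gnb2l1, the gene for RACK1, had means of 1452 ± 83 (SD, n = 3), 1572 ± 127 and 1498 ± 89 CPM in the same order.

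Of the genes that build and use ribosomes, none passed the limma test in any comparison, in any of 8 lists. Counts at an unadjusted p under 0.05 are given for deficient cells against genetic and against animal controls, beside 10.6% and 11.9% of all genes. They were 4 and 5 of 52 ribosome assembly factors, 3 and 2 of 32 RNA polymerase I and III genes, 3 and 1 of 38 initiation factors and 3 and 3 of 16 elongation and other TOP genes. They were 1 and 1 of 20 regulators around mTORC1 and MYC, 4 and 5 of 76 mitochondrial ribosomal proteins, 2 and 5 of 22 mitochondrially encoded genes and 0 and 0 of the 3 components outside the naming rule. Eef2, the translocation factor, came closest, at 5289 ± 0 CPM (SD, n = 3; a tie of ranks) in deficient cells and 4466 ± 177 in animal controls (log2 0.24 ± 0.05, limma adjusted p = 0.0838). Its genetic controls lay between, at 5083 ± 357 CPM. Polr1b, a catalytic subunit of RNA polymerase I, lay at 99.5 ± 21.3 CPM in deficient cells and 39.0 ± 23.3 in genetic controls (log2 1.48 ± 0.40, adjusted p = 0.163). Animal controls lay between for Polr1b, at 69.5 ± 14.5 CPM, and genetic controls were below them as well (log2 -0.97 ± 0.40, limma adjusted p = 0.725). Myc lay at 251 ± 30 CPM in deficient cells and 183 ± 51 in genetic controls (log2 0.49 ± 0.24, adjusted p = 0.502), with 202 ± 39 in animal controls.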

How the data were processed

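RNA was prepared with RNeasy plus micro, amplified with SMARTer Ultra Low Input v3 and made into libraries with Nextera XT, per the labels' protocols. The submitters' processing notes name bcl2fastq 1.8.4, STAR 2.4.0h, limma (no version) and the build mm10. The deposited values are log2 CPM that the authors had normalized; the unit and quantile normalization were read from the values (equal lowest, -7.77, and highest, 13.42, in each library; linear totals 999252 to 999256). Read depth is unknown, and no source used here gives the counting settings.

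Of 13702 rows, 4 duplicates were dropped. Limma 3.58.1 (R 4.3.3, lmFit and eBayes with a trend) was fitted to 3 group means over 9 libraries and 13698 genes, two-sided, with Benjamini-Hochberg adjustment and a threshold of 0.05; it was tested on simulated data. Same-numbered deficient and animal control libraries come from the same mice, per the series' design text. Their deviations correlated at 0.0483, 0.0202 and 0.0170 over 7550 genes and at 0.671, 0.741 and 0.600 over the 89 members. Over the members, deficient 432614 also correlated at 0.62 with animal control 232614, a different mouse. The other pairs of different mice lay at -0.754 to 0.238. The members were taken without a minimum level, so low ones such as Rpl39l (mean 0.653 CPM) were included. Their weight in these values was not tested. Mouse as a block was an alternative. Other alternatives were no trend, a 10 CPM minimum, log2(CPM + 1), 2 rescalings, only the groups compared, each library left out and, added later, summed copies. CPM values are 2 to the power of the deposited value. Copies were found with blastn 2.17.0 on GENCODE M21 transcripts (GRCm38); transcript length is that of the shortest principal transcript.

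Genes are named by rule: the passing members, the 4 largest positive and negative differences per comparison at a mean of at least 10 CPM, the 5 highest, and fixed sets of paralog, stalk and X-linked genes, of which some are not reported here; Rps3a1, Rpl24, Rpl23a, the extremes per length and the copies outside the rule were chosen after their values were seen. Members and lists were chosen with earlier results of these data known.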

Additional observations from a re-analysis of the deposited data

How the results depend on the processing

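Gm8730 and Gm9625 passed in all alternatives in which they were kept, against genetic controls (log2 4.64 to 5.21 and 5.25 to 5.97) and between the controls. With copies added to their parents they are no longer separate genes, and 0 members passed against genetic controls and 0 between the controls. Leaving out each library in turn gave 2 to 3 passing members against genetic controls, 2 to 3 between the controls and 0 against animal controls. With the replicate block, mouse as a fixed or a random term, 0 members passed between deficient cells and animal controls (6 at an unadjusted p under 0.05 in each fit). The block was used for that comparison only, so calls in the others were not checked with it. The median over members ranged from 0.02 to 0.15 against genetic controls, from -0.02 to 0.07 against animal controls and from -0.15 to 0.01 between the controls when each library was left out. Rpl29 against animal controls ranged from -0.31 to 1.498 in the same way (-0.31 without deficient 232614, -0.01 without animal control 142114 and -0.07 without animal control 432614). The cause was not tested. Over all genes, 119 passed against genetic controls and 122 against animal controls, beside 22 and 52 with only the groups compared, 48 to 93 and 58 to 115 without each library in turn, and 148 and 0 against animal controls with mouse as a random and a fixed term. Between the controls 5 passed, beside 32 without the trend, 3 with only the groups compared and 4 to 10 without each library. Unknown depth and 3 libraries per group limit the precision: the median half-width of the 95% interval was 0.24 log2 units over the assembled ribosome genes.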
